A study of Homo sapiens with 16 samples.

Results

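The genes described here are the alpha-arrestins TXNIP, ARRDC1, ARRDC2, ARRDC3 and ARRDC4 and the glucose-sensing transcription factors MLXIP, MLXIPL and MLX, 8 of the 18239 genes that the arrays name through a single symbol. They were taken by symbol with all 27 of their probe sets, out of 45253 single-symbol probe sets. The 8 genes were proposed with earlier results of these same arrays known. Their values are therefore given as a description. Calls at a p threshold are listed for them without the single p-values, and values and calls support nothing by themselves.

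RNA was measured on 16 one-colour Human Genome U219 arrays of SK-N-SH, a human neuroblastoma line in which neuroblast-like and substrate-adherent cells grow side by side. The labels give 4 groups of 4 arrays: cells called untreated, and cells kept in 10 µM risperidone for 6, 24 or 48 h. Risperidone, given against psychosis, is an antagonist of serotonin and dopamine receptors. Every group had first grown for 48 h to near confluence, and the protocol says that controls received the solvent DMSO, at no more than 1% of the volume. No harvest time is given for the controls, so exposure to the drug and time in culture cannot be told apart. The arrays of a group are called biological replicates and nothing says that they came from separate cultures, so p-values measure only the spread between these arrays. Values are log2 expression values, on which a difference of 1 is a doubling, and errors after ± are standard deviations (SD) over n = 4 arrays unless given as standard errors (SE).

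Alpha-arrestins are adaptor proteins that bring ubiquitin ligases of the NEDD4 family to membrane proteins, which are then taken into the cell. TXNIP, the best known of them, binds thioredoxin and lowers glucose uptake by drawing glucose transporters off the cell surface. Its gene is a classic target of MondoA (the product of MLXIP) and ChREBP (the product of MLXIPL), which sense glucose 6-phosphate and bind DNA as dimers with MLX, so that the gene forms a feedback loop on glucose entry. ARRDC4 is the other alpha-arrestin gene known as a MondoA target.

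The DNA element these dimers bind, the carbohydrate response element, is a pair of E-box-like half-sites 5 bases apart, and the promoters of TXNIP and ARRDC4 are shown because these genes had the lowest values at 48 h relative to the earlier groups. Each is the 250 bases before the RefSeq start (GRCh38.p14), read 5′ to 3′ on the gene's strand, and capitals mark every match to CACGNG on either strand. The TXNIP promoter lies at chr1:145996580-145996829 on the minus strand and the ARRDC4 promoter at chr15:97960453-97960702 on the plus strand.
TXNIP: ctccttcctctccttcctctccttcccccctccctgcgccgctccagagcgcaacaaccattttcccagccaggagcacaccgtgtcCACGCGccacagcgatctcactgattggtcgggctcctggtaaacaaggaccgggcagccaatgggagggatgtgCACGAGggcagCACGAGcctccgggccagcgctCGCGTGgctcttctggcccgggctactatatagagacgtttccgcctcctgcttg
ARRDC4: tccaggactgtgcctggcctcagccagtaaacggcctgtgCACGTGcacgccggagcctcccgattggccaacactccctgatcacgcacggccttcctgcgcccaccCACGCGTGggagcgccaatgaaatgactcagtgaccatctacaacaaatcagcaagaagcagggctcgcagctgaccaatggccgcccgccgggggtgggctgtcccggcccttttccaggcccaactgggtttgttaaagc

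Promoter windows from 250 bases before to 50 after the start were found for all 8 genes, 11 windows in all because TXNIP, ARRDC2 and ARRDC3 have several starts. The paired element, searched on both strands as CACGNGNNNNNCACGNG, was in 0.057% of the 35116 RefSeq windows and in 1 of the 11, that of TXNIP, where CACGAGGGCAGCACGAG lies 88 to 72 bases before the start. The single half-site CACGNG, which the paired element contains, was in 30.5% of all windows and in 5 of the 11. The E-box CACGTG, one form of that half-site, was in 7.26% of all windows and in 2 of the 11, those of ARRDC4 (210 to 205 bases before the start) and MLX (50 to 45 bases before). The paired search took both half-sites in the same orientation only. Pairs in opposite orientations were not searched for, so windows without a match may still hold one. These matches describe letters in a window, not binding.

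All 8 genes passed the filter on dim genes, which left 13680 genes to test. With limma's adjusted p of 0.05 as the call, 53.3% of all tested genes were called at 6 h against untreated (36.6% higher and 16.7% lower), and 5 of the 8 were: TXNIP, ARRDC1, ARRDC2 and ARRDC4 higher and MLXIP lower. At 24 h, when 52.1% of all genes were called (35.3% higher and 16.9% lower), ARRDC1, ARRDC2, ARRDC4 and MLXIPL were called higher and MLXIP lower. At 48 h, when 57.0% were called (36.0% higher and 21.0% lower), ARRDC1, ARRDC3 and MLX were called higher and TXNIP, ARRDC4 and MLXIP lower, 6 of the 8. Values of the 2 groups did not overlap for 4, 4 and 5 of the 8 genes at the 3 times, against 45.7%, 46.3% and 47.7% of all genes, and nothing is read from these shares. All 3 comparisons share the untreated arrays.

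Comparisons between exposure times leave those arrays out. From 6 to 24 h, 2.40% of all genes were called (1.55% higher and 0.855% lower; 329 genes, but as few as 163 with 1 array left out, each 24 h array and 6 h arrays 2, 3 and 4 moving the count by over 1.5 times) and none of the 8 by limma (1 at an unadjusted p of 0.05, ARRDC4), while 2 of the 8, TXNIP and ARRDC4, had groups that did not overlap, against 11.0% of all genes. Between 24 and 48 h, 28.6% of all genes were called (13.5% higher and 15.1% lower) and 6 of the 8 were: TXNIP, ARRDC2, ARRDC4 and MLXIPL lower, ARRDC3 and MLX higher. The same 6 had groups that did not overlap, against 30.4% of all genes. The calls of ARRDC2 and MLXIPL in this step were each lost in 4 of 24 alternative analyses. Between 6 and 48 h, 33.6% of all genes were called (16.7% higher and 17.0% lower) and 5 of the 8 were, TXNIP, ARRDC4 and MLXIP lower and ARRDC3 and MLX higher. In that comparison 4 of the 8 had groups that did not overlap, against 33.0% of all genes. The median change of the 8 genes was 0.15, 0.18 and 0.04 at 6, 24 and 48 h against untreated and -0.17 from 24 to 48 h, beside 0.09, 0.09, 0.08 and -0.01 over all tested genes.

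**Figure D1:**
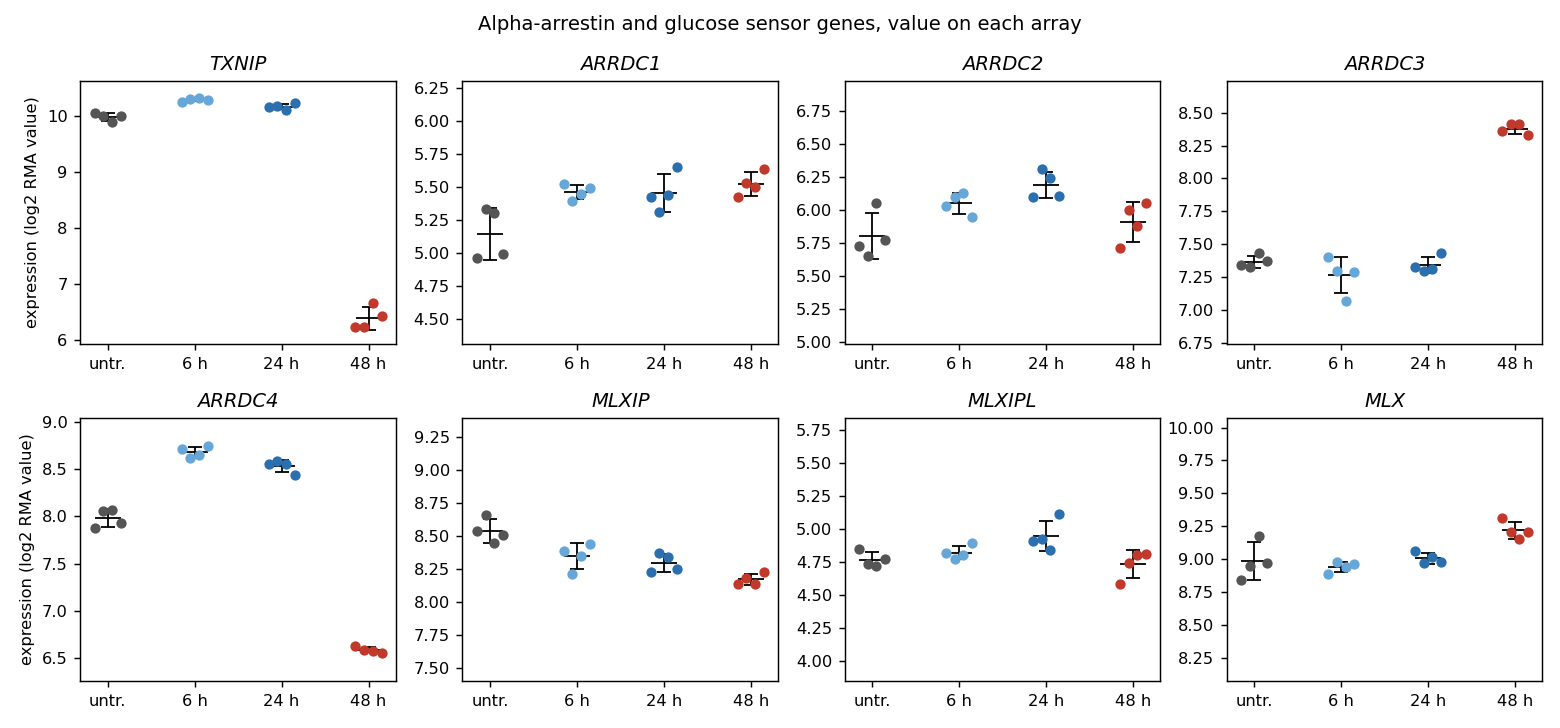
Log2 expression of each of the 8 genes (vertical axis, brightest probe set) on each array (points), for untreated cells (untr.) and 6, 24 and 48 h of risperidone; horizontal bars are group means and whiskers SD, and the vertical axes have different spans. TXNIP stands at 6.22 to 6.65 at 48 h against 9.88 to 10.32 on all other arrays, ARRDC4 is also lowest at 48 h, and ARRDC3 is highest there.

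TXNIP measured 10.05, 10, 9.88 and 10 on the untreated arrays, and 10.25, 10.3, 10.32 and 10.28 at 6 h. It measured 10.15, 10.17, 10.11 and 10.23 at 24 h and 6.22, 6.22, 6.65 and 6.43 at 48 h. On this brightest probe set the arrays of the 4 groups did not overlap: 6 h was highest, then 24 h, then untreated, and 48 h lay far below. The difference from untreated was 0.305 at 6 h, 0.18 at 24 h, which was not called, and -3.60 at 48 h (limma SE 0.08 for each), the last a 12.15-fold lower value. Between 24 and 48 h the difference was -3.78, or 13.78-fold lower, the most negative of the 13680 genes in that comparison, and between 6 and 48 h it was -3.91, or 15.01-fold lower, again the most negative. Against untreated cells the 48 h value ranked 36th from the lowest.

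All 5 TXNIP probe sets had the same order of group means, and on each the 48 h arrays lay below all others. The earlier groups were not separate on every probe set: on some, the 24 h arrays overlapped the untreated or the 6 h arrays. Their differences from untreated lay between 0.265 and 0.365 at 6 h, between 0.05 and 0.18 at 24 h and between -3.68 and -2.65 at 48 h, with 5, 0 and 5 of them called. At 48 h against 24 h they lay between -3.86 and -2.76. The dimmest of the 5 measured 6.44 ± 0.14 in untreated cells and 3.67 ± 0.03 at 48 h, close to the level of 3.65 under which genes were left out as dim. Its difference of -2.77 is smaller than that of the brightest probe set. Another probe set had a still smaller difference of -2.655, although it measured 4.89 ± 0.10 at 48 h, well above that level.

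ARRDC4, the relative of TXNIP that shares its known control by MondoA, measured 7.87, 8.06, 8.07 and 7.93 in untreated cells and 8.71, 8.61, 8.65 and 8.74 at 6 h. It measured 8.55, 8.58, 8.55 and 8.44 at 24 h and 6.63, 6.59, 6.58 and 6.56 at 48 h. The order of the groups was that of TXNIP and no groups overlapped. The difference from untreated was 0.695 at 6 h (1.62-fold), 0.55 at 24 h (1.46-fold) and -1.39 at 48 h (2.63-fold lower; SE 0.05 for each). At 48 h against 24 h it was -1.94, a 3.84-fold lower value that ranked 3rd from the lowest among all tested genes. A second probe set moved alike, from 6.76 ± 0.18 in untreated cells to 7.61 ± 0.09, 7.45 ± 0.04 and 5.45 ± 0.21 at the 3 times. The remaining probe set, at group means of 3.14 to 3.32, was near the bottom of the scale in every group and was not called in any comparison.

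ARRDC3, an adaptor known for the ubiquitin tagging of beta-adrenergic receptors, had the opposite late step. It measured 7.34, 7.33, 7.43 and 7.37 in untreated cells, 7.4, 7.3, 7.07 and 7.29 at 6 h and 7.33, 7.3, 7.31 and 7.43 at 24 h. At 48 h it measured 8.36, 8.41, 8.41 and 8.33, above every other array, while the 3 earlier groups overlapped and none was called against another. The 6 h difference from untreated did become called under 2 alternatives, after cyclic loess (-0.218) and without 6 h array 1 (-0.147). The difference from untreated was -0.10 at 6 h, -0.025 at 24 h and 1.01 at 48 h (2.01-fold higher; SE 0.06 for each). Between 24 and 48 h it was 1.04, or 2.05-fold higher, ranking 15th from the highest among the tested genes. All 3 probe sets were called higher at 48 h, by 0.67 to 1.01 against untreated and by 0.52 to 1.04 against 24 h. One of them, at 4.01 ± 0.08 in untreated cells, was also called higher at 24 h, by 0.31, which the other 2 were not.

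Over the 16 arrays, TXNIP and ARRDC4 had a Pearson r of 0.962, TXNIP and ARRDC3 of -0.987, and ARRDC3 and ARRDC4 of -0.953. These values describe 4 clusters of arrays that share their normalization and rest mostly on the step at 48 h, so no p is given. The tested genes outside the family most like TXNIP by r were ZNF326 (0.984), TST (0.974) and STK38 (0.97). TST, which encodes thiosulfate sulfurtransferase, measured 8.66 ± 0.08, 8.61 ± 0.05, 8.62 ± 0.07 and 7.84 ± 0.05 in the 4 groups, lower only at 48 h. Most like ARRDC3 were MRPL1 (0.97), PAPOLA (0.969) and CREBZF (0.967); PAPOLA, a poly(A) polymerase, stood at 10.46 ± 0.11 in untreated cells and 11.25 ± 0.07 at 48 h. Most like ARRDC4 were CENPU (0.984), CDC6 (0.977) and TRIB2 (0.97); CDC6, a DNA replication licensing factor, went from 9.39 ± 0.09 in untreated cells to 9.55 ± 0.05, 9.55 ± 0.06 and 8.94 ± 0.06.

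ARRDC1 and ARRDC2, each with a single probe set, differed less between groups. ARRDC1, which drives the budding of small vesicles from the plasma membrane, measured 4.96, 5.33, 5.3 and 4.99 in untreated cells and between 5.31 and 5.65 on the 12 arrays of treated cells. Its differences from untreated were 0.32, 0.31 and 0.38 at 6, 24 and 48 h (SE 0.09 for each), and none between exposure times was called. The untreated arrays lay in 2 pairs, and the upper of these reached into the 24 h group. ARRDC2 measured 5.73, 5.65, 6.05 and 5.77 in untreated cells, 6.03, 6.1, 6.13 and 5.95 at 6 h, 6.1, 6.31, 6.24 and 6.11 at 24 h and 5.71, 6, 5.88 and 6.05 at 48 h. Only its 24 h arrays stood clear of the untreated ones, and its differences were 0.25, 0.39 and 0.11 (SE 0.09 for each), the last not called and of the other sign after cyclic loess (-0.00883), where the 6 h call was lost too (0.129). The order of its group means was 24 h, 6 h, 48 h and untreated, and of neighbouring groups none differed without overlap. Only 24 and 48 h, next but one in that order, were called apart among the exposure times (a difference of -0.28).

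**Figure D2:**
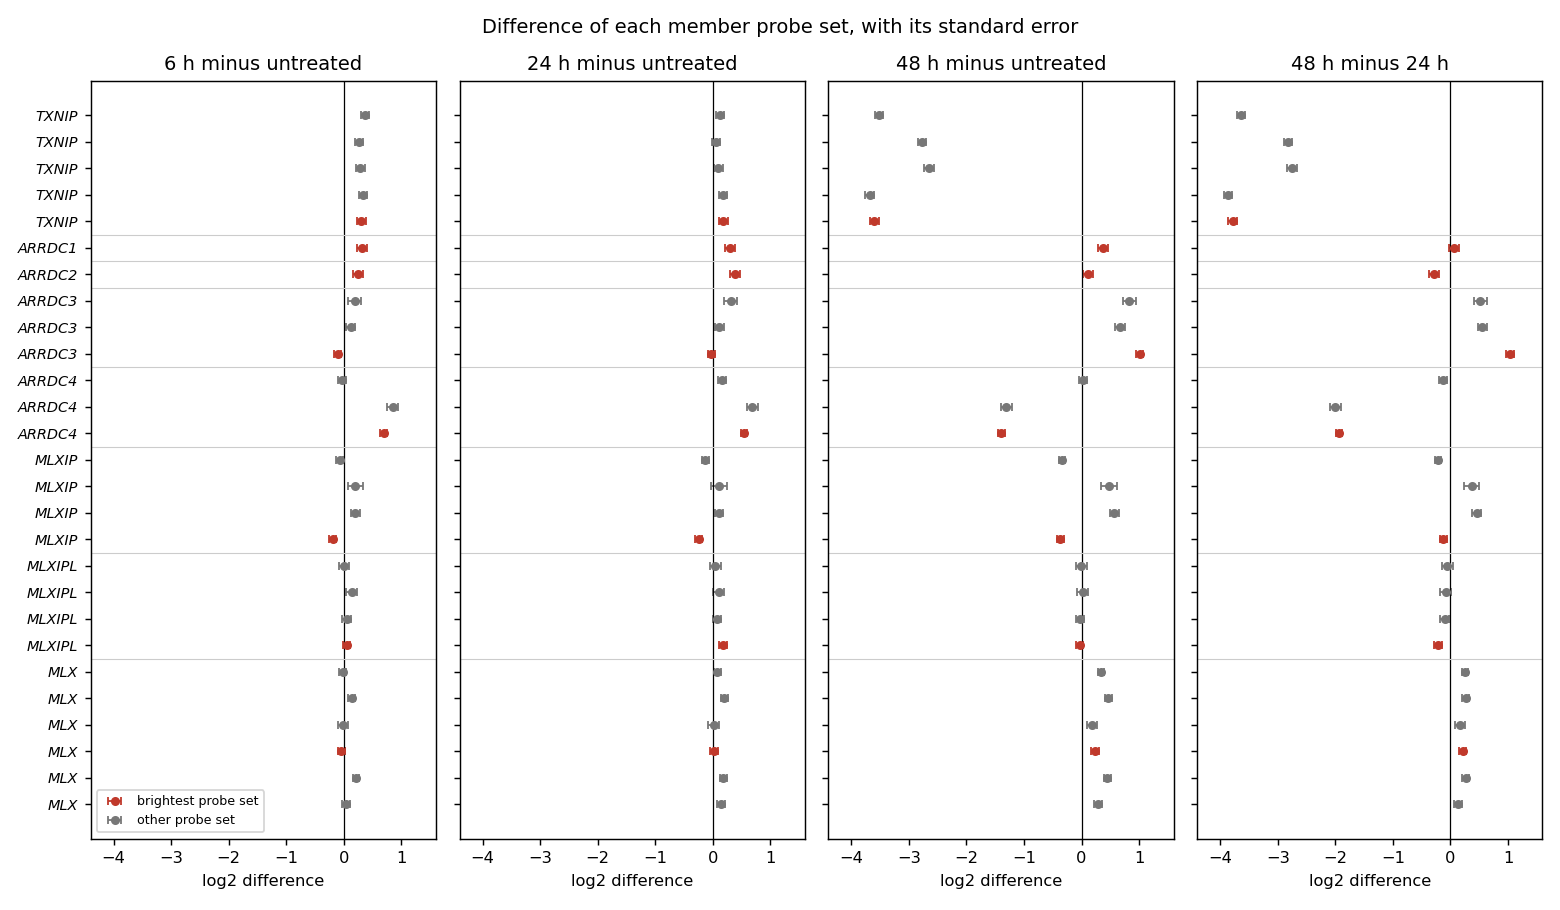
Log2 difference of each of the 27 probe sets (horizontal axis; bars are SE from limma) in 4 comparisons, grouped by gene, with the brightest probe set of each gene in red. The 5 TXNIP probe sets lie together below -2.65 at 48 h against untreated, the 3 ARRDC3 probe sets lie above 0, and the 4 MLXIP probe sets lie on both sides of 0.

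Of all 45253 probe sets, 33.7%, 33.4% and 38.4% were called at 6, 24 and 48 h against untreated, and of the 27 probe sets of the 8 genes 12, 9 and 20 were. Between exposure times the shares of all probe sets were 1.75%, 16.9% and 21.5% (24 against 6 h, 48 against 24 h and 48 against 6 h), and the counts among the 27 were 0, 18 and 18. Probe sets of one gene share its transcripts, so these counts are not independent, and nothing is read from them.

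Among the glucose sensors, MLXIP measured 8.54, 8.66, 8.45 and 8.51 in untreated cells, 8.39, 8.21, 8.35 and 8.44 at 6 h, 8.23, 8.37, 8.34 and 8.25 at 24 h and 8.14, 8.18, 8.14 and 8.23 at 48 h. Every array of treated cells lay below every untreated one. The differences were -0.19, -0.24 and -0.37 (SE 0.06 for each), at most 1.29-fold, and those between neighbouring exposure times, -0.05 and -0.125, were not called. The direction depends on the probe set: a second bright one was also called lower at 48 h, from 8.395 ± 0.04 to 8.055 ± 0.07. The 2 dim ones were called higher, from 3.405 ± 0.18 to 3.885 ± 0.34 and from 3.475 ± 0.13 to 4.045 ± 0.09, and the mean over the 4 probe sets changes sign (0.09 at 48 h).

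MLX, the shared partner, measured 8.84, 8.95, 9.18 and 8.97 in untreated cells, 8.89 to 8.98 at 6 h, 8.97 to 9.06 at 24 h and 9.31, 9.21, 9.15 and 9.21 at 48 h. The 48 h arrays lay above all arrays of 6 and 24 h, and 1 untreated array reached into their range. Differences from untreated were -0.04, 0.02 and 0.235 (SE 0.06 for each), the last 1.18-fold and the only one of the 3 called; after cyclic loess they were -0.138, which was called, and -0.0701 at 6 and 24 h. Its 6 probe sets gave 0.185 to 0.47 at 48 h, with 5 called higher. MLXIPL, the ChREBP gene, stood at group means of 4.77 ± 0.06, 4.82 ± 0.05, 4.95 ± 0.12 and 4.73 ± 0.11, close to the arrays' medians of 4.5 to 4.62. Its differences were 0.05, 0.18 and -0.04 (SE 0.06 for each), only the 24 h one called. That call was lost in 6 of 24 alternatives: with the mean over probe sets (0.101), after cyclic loess (0.078), with another variance model (0.178), and without untreated array 2 (0.165) or 3 (0.162) or 24 h array 4 (0.123). The 6 h difference was -0.0474 after cyclic loess. Its other 3 probe sets were called in no comparison with untreated cells.

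**Figure D3:**
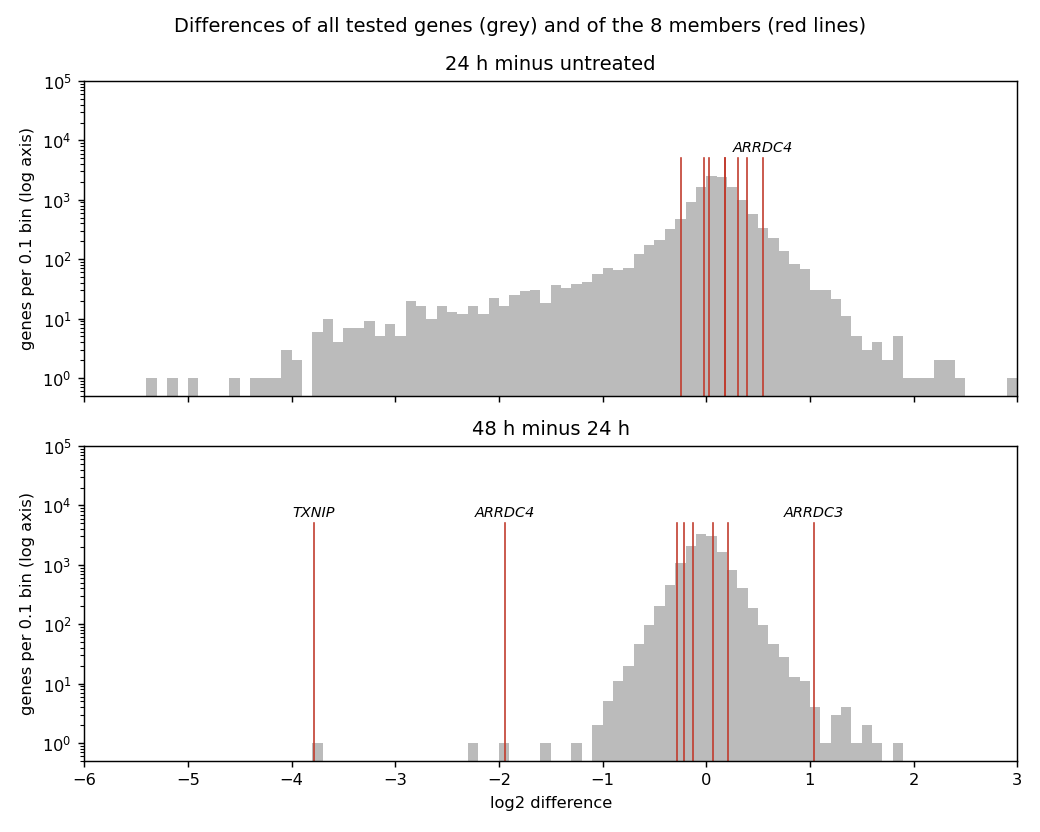
Number of tested genes per 0.1 of log2 difference (grey, log vertical axis) with a red line at each of the 8 genes, for 24 h minus untreated and 48 h minus 24 h. At 24 h all 8 lie between -0.24 and 0.55, where ARRDC4, the highest of them, ranks 785th from the highest of 13680 genes. From 24 to 48 h TXNIP (-3.79) and ARRDC4 (-1.94) lie at the lower end and ARRDC3 (1.04) near the upper end.

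The whole set of arrays was even, with medians between 4.5 and 4.62. Over the 13680 tested genes, arrays of one group correlated at 0.996 to 0.999, and no pair of arrays held more than 4.55% identical values. Of all gene calls against untreated, 68.7%, 67.6% and 63.1% were higher in treated cells at 6, 24 and 48 h, and after cyclic loess normalization 49.3%, 49.3% and 49% were, so the deposited scale and that one place 0 at different points, with the median change of all genes 0.09 against 0.01 at 6 h. Markers of cell types were compared between groups, which does not check the identity of the line. All 9 tested markers of neuroblast-like (adrenergic) cells were higher at 6 h, and 8 were at 24 and at 48 h. EYA1, a developmental transcription factor, rose by 1.602 at 48 h (SE 0.05, adjusted p = 3.18e-14) and DBH, which makes noradrenaline, by 1.74 (SE 0.07, adjusted p = 8.62e-13). The log2 of their summed level was 14.59 to 14.7 in untreated cells, 15.11 to 15.16 at 6 h, 15.18 to 15.24 at 24 h and 15.28 to 15.34 at 48 h. All 10 markers of substrate-adherent (mesenchymal) cells fell at every time, with median changes of -3.71, -3.36 and -3.51, and their summed level went from 13.93 to 14.19 down to 12.16 to 12.4, 12.17 to 12.32 and 11.98 to 12.14. The matrix genes COL6A3 and FN1 differed by -4.405 (SE 0.11, adjusted p = 1e-14) and -3.51 (SE 0.09, adjusted p = 1.62e-14) at 48 h, although other probe sets gave -3.33 to 0.175 and -4.07 to -0.03. In bulk RNA, fewer cells of a type and less RNA per cell cannot be told apart.

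These markers moved chiefly between untreated cells and 6 h, whereas TXNIP, ARRDC4 and ARRDC3 differed most between 24 and 48 h. In that later step 2 of the 10 mesenchymal markers fell (median change -0.21) and 2 of the 9 adrenergic markers rose (median change 0.085); their part in the changes of the 3 genes was not tested. Of 2 Schwann cell markers tested, S100B rose at all 3 times (by 0.605 at 6 h, adjusted p = 3.51e-08) and SOX10 rose only at 24 h (by 0.27, adjusted p = 0.027), against 0.08 at 6 h and 0.13 at 48 h. The SOX10 call was lost after cyclic loess and without untreated array 2 or 4 or 24 h array 1 or 2. The markers had a summed level of 5.70 to 5.78 in untreated cells and 6.04 to 6.37 in treated ones. Of 3 white blood cell markers, PTPRC was dim and CD68 changed by -1.525 at 48 h (adjusted p = 1.33e-09), with a second probe set at -0.38. The remaining marker, CD3E, named after its values were seen, stood at 0.21, 0.145 and 0.175 and was not called. The 3 had summed levels of 6.21 to 6.64 in untreated cells and 5.33 to 5.61 in treated ones. Endothelial markers summed to 5.65 to 5.87 in all groups, and CDH5 was dim. KDR rose by 0.21 at 6 h (adjusted p = 0.0124) and no other tested endothelial marker was called at any time. The 3′ minus 5′ difference of the ACTB control, a sign of RNA integrity, was 1.55 to 1.94 in untreated cells, 1.98 to 2.41 at 6 h, 1.94 to 2.16 at 24 h and 1.76 to 2.15 at 48 h, and that of GAPDH 0.07 to 0.18 throughout.

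Other genes of the pathway were taken from lists written from textbook knowledge with results of these arrays known, and lists are described by counts of calls (limma, adjusted p below 0.05) and by their median. All of these counts stand beside 36.6%, 35.3% and 36.0% of all tested genes called higher and 16.7%, 16.9% and 21.0% called lower at 6, 24 and 48 h, with medians of 0.09, 0.09 and 0.08. The late step, 24 to 48 h, had shares of 13.5% higher and 15.1% lower, with a median of -0.01. Of 15 tested genes known to be switched on by the MLX dimers, 4 rose at 6 h, 2 rose at 24 h, and 1 rose and 3 fell at 48 h. The list's medians were 0.04, 0.03 and -0.08, against 0.09, 0.09 and 0.08 over all genes; after cyclic loess the first 2 were -0.01 and -0.08, and 1 rose and 6 fell at 48 h. KLF10, a repressor that responds to glucose and growth factors, was not called at 6 or 24 h and fell by 0.63 at 48 h (SE 0.08, adjusted p = 1.61e-06). Its second probe set gave -0.62. Its arrays read 9.75 to 10.05 in untreated cells, 9.78 to 9.98 at 24 h and 9.08 to 9.42 at 48 h, so that the 48 h arrays stood below all others.

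PFKFB3, whose product makes the activator of glycolytic phosphofructokinase, rose by 0.26 at 24 h (SE 0.05, adjusted p = 0.000382) and fell by 0.39 at 48 h (adjusted p = 4.84e-06). Its arrays read 8.84 to 9.05 in untreated cells, 9.17 to 9.32 at 24 h and 8.5 to 8.65 at 48 h. However, its 3 other probe sets gave -0.01 to 0.195 at 48 h. Between 24 and 48 h, 3 of the 15 fell, KLF10, KLF11 and PFKFB3, and none rose (1 rose at an unadjusted p of 0.05). For PFKFB3 this difference was -0.65 on the brightest probe set, while its 3 others gave -0.16 to 0.05. KLF11, named after its values were seen, fell by 0.49 (SE 0.07, adjusted p = 7.66e-05). HK2, the hexokinase that traps glucose in the cell, rose by 0.71, 0.715 and 0.90 at 6, 24 and 48 h (SE 0.07 for each; adjusted p = 1.39e-08 at 48 h). Its arrays read 8.69 to 9.03 in untreated cells and 9.46 to 9.88 in treated ones. Its second probe set rose less, by 0.16, 0.19 and 0.45.

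All 3 other dimer partners of MLX rose at 6 and 24 h and 2 did at 48 h, with medians of 0.48, 0.38 and 0.20. After cyclic loess 2, 3 and 1 rose and 1 fell at 48 h. In the late step 2 fell, with a median of -0.19. MXD1, a repressor that competes for E-boxes, rose by 0.90, 0.91 and 0.72 (SE 0.06 for each; adjusted p = 4.08e-10 at 24 h). Its arrays went from 7.21 to 7.34 in untreated cells to 7.85 to 8.27 in treated ones, but its second probe set gave -0.02 to -0.06. MXD4 rose by 0.48 at 6 h (SE 0.06, adjusted p = 4.26e-06) and 0.37 at 24 h, stood at -0.125 at 48 h (adjusted p = 0.089), and fell by 0.49 between 24 and 48 h. Its 4 other probe sets all gave a positive difference at 48 h, 0.26 to 0.65.

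**Figure D4:**
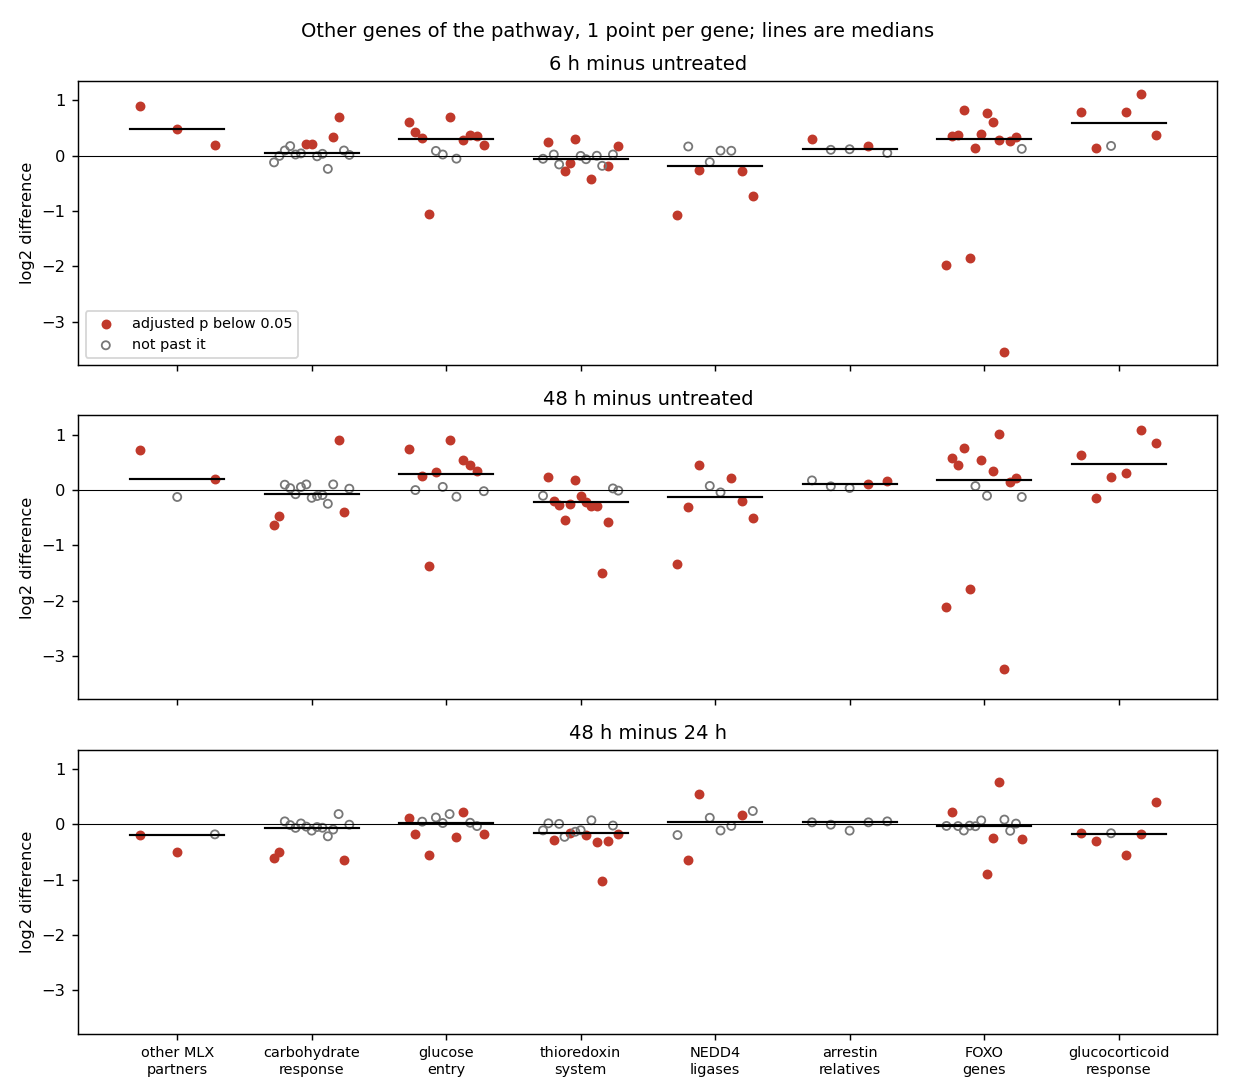
Log2 difference of each tested gene of 8 lists (points; filled where the adjusted p is below 0.05) with the list's median (horizontal bar), at 6 h and 48 h against untreated and at 48 h against 24 h. Medians of the glucose entry list lie at 0.30 and 0.29 in the first and second panels and that of the thioredoxin list at -0.21 in the second.

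Glucose entry, on which TXNIP acts, was represented by 12 tested transporters and enzymes of glucose 6-phosphate, of which 8, 9 and 7 rose and 1 fell at 6, 24 and 48 h, with medians of 0.30, 0.205 and 0.29. After cyclic loess 7, 5 and 7 rose and 1, 1 and 2 fell. In the late step, 24 to 48 h, 2 rose and 4 fell, with a median of 0.03. SLC2A1, the transporter GLUT1 whose uptake into the cell TXNIP promotes, read 9.2 to 9.33 in untreated cells, 9.82 to 9.92 at 6 h, 9.85 to 9.91 at 24 h and 9.95 to 10.05 at 48 h. Every treated array exceeded every untreated one. The rises were 0.605, 0.62 and 0.75 (SE 0.04 for each; adjusted p = 1.04e-10 at 48 h). The 3 other probe sets gave 0.22 to 0.84 at 48 h. SLC2A10, an endomembrane transporter, fell by 1.38 at 48 h (SE 0.12, adjusted p = 2.48e-08), from 5.89 to 6.43 in untreated cells to 4.51 to 5.11. Its 2 other probe sets gave -0.33 to 0.24. SLC2A2, SLC2A4 and SLC2A12 were dim.

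The thioredoxin system, which TXNIP binds, had 15 tested genes, of which 3, 3 and 2 rose and 4, 5 and 10 fell at 6, 24 and 48 h, with medians of -0.055, -0.0025 and -0.21. After cyclic loess 3, 2 and 2 rose and 7, 6 and 11 fell. TXN itself, the cytosolic thioredoxin, named here outside the rule and after its values were seen, read 12.16 ± 0.15 in untreated cells and 12.06 ± 0.09 at 48 h, a difference of -0.10 (SE 0.07, adjusted p = 0.198). GLRX, a glutaredoxin that reduces glutathionylated proteins, read 7.55 to 7.96 in untreated cells, 7.16 to 7.34 at 24 h and 6.05 to 6.43 at 48 h. These 3 groups did not overlap, while 6 h (7.39 to 7.64) overlapped untreated. It fell by 1.5 at 48 h (SE 0.09, adjusted p = 4.36e-10) and by 1.02 between 24 and 48 h. Its 2 other probe sets gave -1.23 and -1.13 at 48 h.

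GLRX2, its mitochondrial relative, fell, with differences of -0.18, -0.275 and -0.58 (SE 0.06 for each; adjusted p = 2.38e-07 at 48 h). The 6 h call was lost without untreated array 3 or 4 or 6 h array 4. PRDX2, a peroxidase that thioredoxin recharges, rose by 0.31, 0.32 and 0.185 (SE 0.05 for each; adjusted p = 3.94e-05 at 24 h). Its 4 other probe sets gave 0.17 to 0.25 at 48 h. TXN2, the mitochondrial thioredoxin, rose by 0.25, 0.22 and 0.24 (SE 0.06 for each; adjusted p = 0.00166 at 6 h), and the 24 h call was lost after cyclic loess. Between 24 and 48 h, 7 of the 15 fell and none rose by limma, 0 also at an unadjusted p of 0.05, with a median of -0.16.

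Of 8 tested NEDD4 family ligases, the enzymes that alpha-arrestins recruit, 4 fell at 6 h, 2 rose and 3 fell at 24 h, and 2 rose and 4 fell at 48 h. After cyclic loess 5, 5 and 4 fell and 0, 0 and 1 rose. The medians were -0.185, -0.07 and -0.12, and between 24 and 48 h 2 rose and 1 fell, with a median of 0.05. NEDD4 read 6.82 to 7.17 in untreated cells and 5.6 to 6.07 on all treated arrays. It fell, with differences of -1.075, -1.14 and -1.33 (SE 0.09 for each; adjusted p = 6.97e-10 at 48 h). Its 2 other probe sets gave -1.43 and -0.59 at 48 h. HECW2 fell, with differences of -0.73, -0.755 and -0.51 (SE 0.09 for each; adjusted p = 3.81e-06 at 24 h), with 2 other probe sets at -0.80 and -0.02 at 24 h.

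ITCH, a ligase known to mark TXNIP itself for degradation, fell by 0.255 at 6 h (adjusted p = 0.0225), a call lost without untreated array 2 or 3 or 6 h array 4. It rose by 0.445 at 48 h (SE 0.09, adjusted p = 0.000345), with 48 h arrays at 7.28 to 7.4 against 6.72 to 7.08 untreated. Its 3 other probe sets gave -0.32 to 0.50 at 48 h. NEDD4L rose by 0.33 at 24 h (SE 0.09, adjusted p = 0.00612), which was lost after cyclic loess, and fell by 0.315 at 48 h (adjusted p = 0.00765). Its 6 other probe sets gave -0.37 to 0.205 at 48 h.

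Of 5 tested proteins that share only the arrestin fold, 2 rose at 6 h, none was called at 24 h (1 at an unadjusted p of 0.05) and 2 rose at 48 h, on so few genes close to the shares of all genes called higher. None was called between 24 and 48 h, 0 also at an unadjusted p of 0.05, and none against untreated after cyclic loess. The medians were 0.12, 0.11 and 0.115. VPS26B and VPS26C, subunits of sorting complexes of the endosome, rose by 0.17 at 6 h (SE 0.05, adjusted p = 0.0052) and by 0.17 at 48 h (SE 0.05, adjusted p = 0.00709), with other probe sets at 0.08 for the first and 0.27 to 0.995 for the second.

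TXNIP is also known to be induced by FOXO factors and by glucocorticoids, so genes of both responses were listed. Of 14 FOXO factors and targets, 10, 9 and 8 rose and 3 fell at 6, 24 and 48 h, with medians of 0.31, 0.25 and 0.18. After cyclic loess 7, 7 and 6 rose and 3, 3 and 5 fell. In the step from 24 to 48 h 2 rose and 3 fell, with a median of -0.03. SESN1, a stress-induced inhibitor of growth signalling, rose by 0.61, 0.60 and 0.35 (SE 0.04 for each; adjusted p = 4.38e-09 at 6 h). Its second probe set gave 0.54 at 48 h. PIK3IP1, an inhibitor of phosphoinositide 3-kinase, rose by 0.765 and 0.795 at 6 and 24 h (SE 0.05, adjusted p = 5.55e-10 at 24 h) and stood at -0.10 at 48 h (adjusted p = 0.0876). However, its 7 other probe sets gave only -0.19 to 0.395 at 24 h. FOXO1 fell, with differences of -1.985, -2.09 and -2.115 (SE 0.08 for each; adjusted p = 5.29e-13 at 48 h), with 3 other probe sets at -0.46 to 0.08 at 48 h. CITED2, a coactivator-binding protein, fell, with differences of -3.55, -3.32 and -3.23 (SE 0.12 for each; adjusted p = 3.72e-13 at 6 h), with a second probe set at -0.52 at 6 h.

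Of 6 tested glucocorticoid or growth factor withdrawal genes, 5, 6 and 5 rose at 6, 24 and 48 h and 1 fell at 48 h, with medians of 0.58, 0.62 and 0.47. After cyclic loess 4, 5 and 4 rose and 1 fell at 48 h. KLF9, a transcription factor induced by glucocorticoids, read 7.19 to 7.5 in untreated cells and 8.38 to 8.63 in treated ones. It rose by 1.12, 1.255 and 1.08 (SE 0.06 for each; adjusted p = 8.38e-12 at 24 h), while its 3 other probe sets gave -0.05 to 1.11 at 48 h. TSC22D3, the glucocorticoid-induced leucine zipper, rose by 0.80, 0.79 and 0.635 (SE 0.05 for each; adjusted p = 1.83e-09 at 6 h). FKBP5, a chaperone partner of the receptor, rose by 0.145 at 6 h (adjusted p = 0.0209) and fell by 0.14 at 48 h (SE 0.05, adjusted p = 0.0208). The 6 and 24 h calls were lost after cyclic loess, the 6 h call also without 6 h array 2 or 3, the 24 h call without 24 h array 4, and the 48 h call without untreated array 3 or 48 h array 4. The 5 other FKBP5 probe sets gave -0.06 to 0.42 at 6 h, -0.21 to 0.285 at 24 h and -0.12 to -0.005 at 48 h. Between 24 and 48 h, 1 of the 6 rose and 4 fell. The largest fall was that of DDIT4, a stress-induced inhibitor of mTOR signalling (-0.55, SE 0.06, adjusted p = 9.94e-06), and the gene that rose was KLF15 (0.40, SE 0.06, adjusted p = 0.000112); both are named after their values were seen. The other differences were -0.175 for KLF9, -0.16 for TSC22D3 and -0.29 for FKBP5. Those of KLF9 and TSC22D3 were lost when any of several arrays of 24 or 48 h was left out.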

How the data were processed

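RNA of 16 arrays in 4 groups of 4 was analysed. The authors deposited log2 expression, 1 value per probe set and array, made with RMA per the submitters' processing notes; which program ran it is not given in the sources used here. RMA equalises the arrays' distributions, so a change in total RNA per cell cannot be seen.

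Probe sets were named from GEO's platform annotation where it gave a single symbol. For each gene the brightest probe set over the 16 arrays was used, and the lowest 25% of genes (mean below 3.65) were left out as dim. Differences came from limma 3.58.1 in R 4.3.3, with 1 linear model for all 4 groups and moderated two-sided tests, and Benjamini-Hochberg adjustment over all genes within a comparison; p-values are its adjusted values and the threshold was 0.05. The script was tested on simulated data. The number of arrays limits the precision.

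The 8 genes and all lists were chosen with earlier results of these data known. Named were all 8 genes, from each list up to 2 genes that rose and 2 that fell with the smallest p against untreated, and the 3 genes most correlated with TXNIP, ARRDC3 and ARRDC4. Alternatives were the value per gene, the dim filter, the normalization, the variance model, a replicate block, the arrays fitted, and each array left out.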

Additional observations from a re-analysis of the deposited data

Results flagged for a closer look

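Among 108 groups of 4 arrays (27 probe sets in 4 groups), 6 had one array far from the other 3 by Dixon's criterion, close to the share of about 5% that chance gives. One untreated array read 4.98 for a MLXIPL probe set (the other 3 read 4.6 to 4.65), and one 24 h array read 4.2 for another (4.41 to 4.44). Among 48 h arrays, one read 3.24 for the dim ARRDC4 probe set (3.17 to 3.18) and one read 5.14 for the second bright one (5.53 to 5.59). For the second bright MLXIP probe set, one 24 h array read 8.34 (8.24 to 8.25) and one 48 h array 7.95 (8.08 to 8.1).

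Levels were called different between exposure times, when the times themselves were compared, for 6 of the 8 genes at 48 against 24 h, where 28.6% of all genes were called, and for 5 of the 8 at 48 against 6 h, where 33.6% were. Over the 24 alternatives these counts were 4 to 6 and 4 to 5. From 24 to 48 h the log2 differences were -3.78 for TXNIP, -0.28 for ARRDC2, 1.04 for ARRDC3, -1.94 for ARRDC4, -0.213 for MLXIPL and 0.212 for MLX. From 6 to 48 h they were -3.91 for TXNIP, 1.11 for ARRDC3, -2.09 for ARRDC4, -0.175 for MLXIP and 0.277 for MLX.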

How the results depend on the processing

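TXNIP at 48 h against untreated ranged from -3.69 to -3.25 over the 24 alternatives, ARRDC4 from -1.50 to -0.89 and ARRDC3 from 0.838 to 1.03, and all 3 were called in each. The number of the 8 genes called was 4 to 6, 4 to 6 and 5 to 7 at 6, 24 and 48 h. TXNIP at 24 h became called in 7 of 24, ARRDC3 at 6 h in 2, MLXIPL at 24 h was lost in 6 and ARRDC2 at 6 h in 5. For 48 against 24 h, 4 to 6 of the 8 were called, and ARRDC2 and MLXIPL were each lost in 4 of 24. For 48 against 6 h, 4 to 5 were called, and MLXIP was lost in 5 and changed sign in 1. With every probe set tested by itself, 15241, 15095, 17390, 791, 7635 and 9711 calls were made in place of 7291, 7134, 7794, 329, 3907 and 4598 genes, since more features were tested; leaving out an array gave 163 to 378 for 24 against 6 h.

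With the mean over a gene's probe sets, signs turned for ARRDC3 (0.07 at 6 h, 0.134 at 24 h), MLX at 6 h (0.0558) and MLXIP (0.035 at 6 h, 0.0856 at 48 h, 0.121 for 48 against 24 h, 0.0506 for 48 against 6 h). With cyclic loess they turned for MLXIPL at 6 h (-0.0474), MLX at 24 h (-0.0701) and ARRDC2 at 48 h (-0.00883). Leaving out an array, small differences crossed 0: MLX at 6 h (-0.0908 to 0.0225) and 24 h (-0.0258 to 0.0875), ARRDC1 for 24 against 6 h (-0.0725 to 0.0408) and MLXIPL at 48 h (-0.0608 to 0.0158). Except as described for the mean over probe sets, the cause was not tested.

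Arrays of the same replicate number deviated together weakly at most: over 24 pairs r was -0.152 to 0.181, with 8 above 0.1. The median r of these pairs was 0.05, against -0.02 for pairs of different replicate numbers. With the replicate number as a block, 5, 5 and 6 of the 8 genes were called at 6, 24 and 48 h and 7325, 7187 and 7830 of all genes, and no count of calls moved by over 1.5 times. The array number (4 a group) and the dim probe sets near the bottom of the scale limit what can be seen.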
